A study of Mus musculus with 4 samples.

Results

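The genes described here encode the isoenzymes of 5 enzyme steps between glucose and lactate: the hexokinases Hk1 and Hk2, the phosphofructokinases Pfkm and Pfkp, the aldolases Aldoa and Aldoc, the enolases Eno1 and Eno2, and the lactate dehydrogenases Ldha and Ldhb. They were chosen by gene symbol, and all 10 symbols were found among the 29224 genes of the table. Aldoa is listed under 2 identifiers, so the symbols cover 11 rows. Cells were taken at P5 from the cerebral cortex with beads against GLAST (ACSA-1), a glutamate transporter of astrocytes, and their RNA was sequenced in 4 libraries, 2 from Ezh2 f/f mice and 2 from Ezh2 cKO mice. Both groups carry floxed Ezh2, and Ezh2 cKO mice also carry Aldh1l1-icre, which expresses Cre recombinase from an astrocyte promoter. Ezh2 is the enzyme that places methyl groups on lysine 27 of histone H3. The sex of the animals, the strain of these libraries and whether animals were pooled are not given in the sources used here, and nothing says that libraries of a group came from separate animals, so the p-values measure the spread between these libraries.

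Glycolysis splits glucose into pyruvate, and lactate dehydrogenase interconverts pyruvate and lactate. Hexokinase traps glucose in the cell, phosphofructokinase makes the committed step, aldolase cuts the sugar into triose phosphates, and enolase works near the end of the pathway. Each step is carried out by several isoenzymes from separate genes. In brain, Aldoc is known as an astrocyte-enriched aldolase, Eno2 as the neuron-specific enolase, and Ldha and Ldhb as the subunits whose mixture sets whether the tetramer favours lactate or pyruvate. Astrocytes are known for active glycolysis and for the release of lactate.

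The libraries held between 16273308 and 17522152 counts, and 3 counts corresponded to between 0.171 and 0.184 CPM (counts scaled to library size by TMM, on a common total). Ezh2 had 434 and 327 counts in Ezh2 f/f against 211 and 164 in Ezh2 cKO. The log2 fold change of -1.11 (standard error 0.16, edgeR adjusted p = 3.26e-05) shows the targeted transcript lower and still present. Every fold change divides the Ezh2 cKO level by the Ezh2 f/f level. They come from the quasi-likelihood test of edgeR, fitted on the 16793 genes left after filtering, with Benjamini-Hochberg adjustment. Across genes, log2 CPM correlated with r = 0.992 within Ezh2 f/f, 0.993 within Ezh2 cKO and 0.913 to 0.917 between groups; genes are not independent replicates. The Ezh2 f/f libraries differed from each other in choroid plexus RNA, with 6326 and 11598 counts of Ttr.

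Transcripts of 9 of the 10 isoenzyme genes were higher in Ezh2 cKO, and 0 were lower, at an adjusted p under 0.05 (edgeR). Over all tested genes, 34.7% were higher and 33.6% were lower by the same rule. Aldoc, Eno2, Aldoa, Ldha and Pfkm rose at least 2-fold, and 19.0% of all tested genes did so. In all 10 genes both Ezh2 cKO libraries lay above both Ezh2 f/f libraries in CPM, which 42.8% of all tested genes also did. The median log2 fold change of the 10 genes was 1.04, and that of all tested genes was 0.02. Hk2 was the gene that did not pass the test. Summed over the 10 genes, FPKM (counts scaled to gene length and library size) was 540.7 and 585.0 in Ezh2 f/f against 1264 and 1222 in Ezh2 cKO. In bulk RNA, a change in the number of cells of a type cannot be told apart from a change in RNA per cell.

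**Figure D1:**
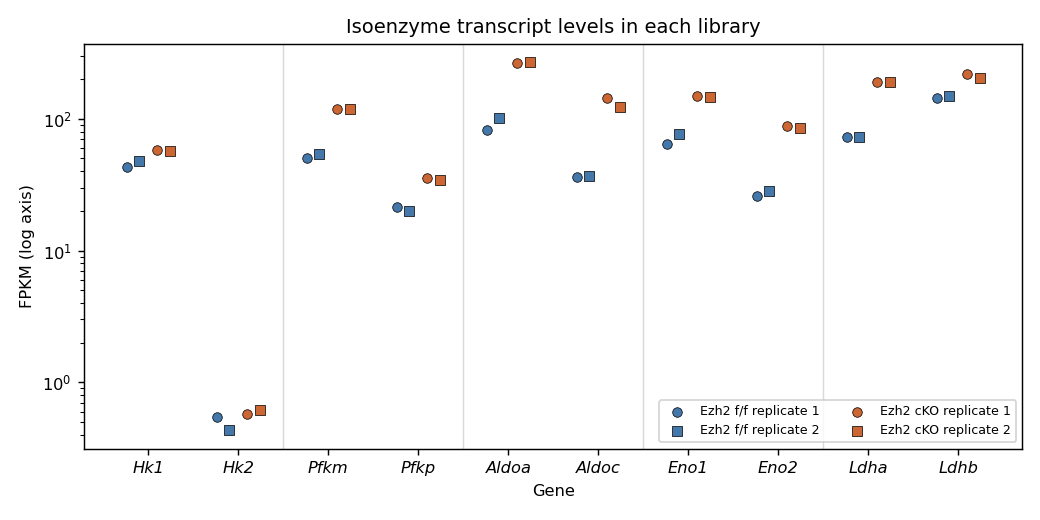
FPKM on a log axis for each isoenzyme gene, with 1 point per library (blue, Ezh2 f/f; orange, Ezh2 cKO; circle, replicate 1; square, replicate 2). Orange points lie above blue points for every gene, and Hk2 is the lowest, under 1 FPKM in all 4 libraries.

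Hk1, the main hexokinase of brain, rose slightly. Hk1 (ENSMUSG00000037012, chromosome 10, 62104634 to 62215687, minus strand) had 6491 and 6589 counts in Ezh2 f/f against 8554 and 8119 in Ezh2 cKO. Its level was 43.4 and 47.5 FPKM in Ezh2 f/f against 57.9 and 57.1 FPKM in Ezh2 cKO. The log2 fold change was 0.25 (standard error 0.083, edgeR adjusted p = 0.0147), the smallest among the genes called higher. This call was lost without Ezh2 f/f replicate 1 (0.18, edgeR adjusted p = 0.0663) and without Ezh2 cKO replicate 1 (0.23, edgeR adjusted p = 0.0906). Hk2 (ENSMUSG00000000628, chromosome 6, 82702006 to 82751435, minus strand), the inducible hexokinase of muscle and many tumours, had 57 and 42 counts in Ezh2 f/f against 60 and 61 in Ezh2 cKO. Hk2 stood at 0.545 and 0.432 FPKM in Ezh2 f/f against at 0.580 and 0.613 FPKM in Ezh2 cKO. The difference did not pass the test (log2 fold change 0.20, standard error 0.26, edgeR adjusted p = 0.504). Hk2 made up 1.07 ± 0.24% (SD, n = 2) of the FPKM of the pair in Ezh2 f/f against 1.03 ± 0.049% in Ezh2 cKO, and the groups overlapped. Of the hexokinases with low counts, Hk3 rose from 7 and 2 counts to 60 and 40, and Hkdc1 from 16 and 14 counts to 130 and 86 (edgeR adjusted p = 2.94e-05 and 2.87e-06).

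Both phosphofructokinases rose, and the muscle-type subunit Pfkm rose more than the platelet-type subunit Pfkp. Pfkm (ENSMUSG00000033065, chromosome 15, 97990470 to 98030332, plus strand) had 2945 and 2915 counts in Ezh2 f/f against 6812 and 6546 in Ezh2 cKO. Its level went from 50.3 and 53.6 FPKM to 117.7 and 117.5 FPKM (log2 fold change 1.09, standard error 0.086, edgeR adjusted p = 7.40e-08). Pfkp (ENSMUSG00000021196, chromosome 13, 6629804 to 6698813, minus strand) had 5029 and 4332 counts in Ezh2 f/f against 8209 and 7685 in Ezh2 cKO. In FPKM it moved from 21.4 and 19.9 FPKM to 35.3 and 34.4 FPKM (log2 fold change 0.67, standard error 0.084, edgeR adjusted p = 6.75e-06). The liver-type subunit Pfkl, which is not among the 10 genes, rose with a log2 fold change of 0.64 (edgeR adjusted p = 1.05e-04). The ratio of Pfkm to Pfkp in FPKM was 2.35 and 2.70 in Ezh2 f/f against 3.33 and 3.42 in Ezh2 cKO, a difference of 0.42 in log2 ratio with no overlap between groups. With 2 libraries against 2, the exact two-sided permutation test cannot give a p below 0.333, which is the value it gave here and for the other ratios whose groups did not overlap. Which subunit was the more abundant depended on the gene length: the deposited FPKM use 13401 bases for Pfkp, while its transcript in GENCODE M21 has 4145 bases. With GENCODE lengths the ratio was 0.843 and 0.969 in Ezh2 f/f against 1.19 and 1.23 in Ezh2 cKO, and the difference between groups was the same because a length cancels in it.

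Both aldolases rose, and Aldoc had the largest fold change of the 10 genes. Aldoa (ENSMUSG00000030695, chromosome 7, 126394406 to 126399923, minus strand), the aldolase found in most tissues, had 4201 and 4782 counts in Ezh2 f/f against 13262 and 12992 in Ezh2 cKO. It climbed from 82.4 and 100.9 FPKM to 262.9 and 267.6 FPKM (log2 fold change 1.45, standard error 0.098, edgeR adjusted p = 1.80e-08). By mean deposited FPKM, Aldoa moved from rank 543 to rank 122 among all genes of the table. Aldoc (ENSMUSG00000017390, chromosome 11, 78213794 to 78218607, plus strand) had 2059 and 1941 counts in Ezh2 f/f against 8155 and 6624 in Ezh2 cKO. In FPKM, Aldoc went from 36.0 and 36.6 FPKM to 144.2 and 121.7 FPKM (log2 fold change 1.79, standard error 0.10, edgeR adjusted p = 3.25e-09), and the Ezh2 cKO libraries were farther apart than for the other genes. The ratio of Aldoa to Aldoc was 2.29 and 2.76 in Ezh2 f/f against 1.82 and 2.199 in Ezh2 cKO, so Aldoa remained the higher of the pair in every library. The log2 ratio differed by -0.33, with the lowest Ezh2 f/f library close to the highest Ezh2 cKO library (exact two-sided permutation p = 0.333). It was -0.19 without Ezh2 f/f replicate 2 and also without Ezh2 cKO replicate 1.

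The second Aldoa identifier (ENSMUSG00000114515, chromosome 7, 126399962 to 126408280, minus strand) is listed upstream of the first, 5′ of it on the same strand. It moved the other way, from 148 and 135 counts in Ezh2 f/f to 45 and 39 in Ezh2 cKO (log2 fold change -1.84, standard error 0.22, edgeR adjusted p = 4.64e-06). It held 3.07 ± 0.46% (SD, n = 2) of the counts under the symbol in Ezh2 f/f against 0.319 ± 0.027% in Ezh2 cKO. Added together, the 2 identifiers gave a log2 fold change of 1.41.

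Both enolases rose, Eno2 more than Eno1. Eno1 (ENSMUSG00000063524, chromosome 4, 150321178 to 150333336, plus strand), the enolase of most cell types, had 6017 and 6742 counts in Ezh2 f/f against 13859 and 13221 in Ezh2 cKO. Its FPKM values went from 63.8 and 77.0 FPKM to 148.7 and 147.4 FPKM (log2 fold change 0.99, standard error 0.094, edgeR adjusted p = 5.05e-07). Eno2 (ENSMUSG00000004267, chromosome 6, 124737016 to 124746636, minus strand) had 2126 and 2166 counts in Ezh2 f/f against 7123 and 6656 in Ezh2 cKO. In FPKM, Eno2 went from 25.8 and 28.3 FPKM to 87.4 and 84.8 FPKM (log2 fold change 1.59, standard error 0.091, edgeR adjusted p = 3.49e-09). The ratio of Eno1 to Eno2 was 2.48 and 2.72 in Ezh2 f/f against 1.70 and 1.74 in Ezh2 cKO, a log2 difference of -0.59 with no overlap (exact two-sided permutation p = 0.333). Eno2 thus took 27.8 ± 1.35% (SD, n = 2) of the FPKM of the pair in Ezh2 f/f against 36.8 ± 0.34% in Ezh2 cKO. Eno3, the muscle enolase, fell from 347 and 332 counts to 191 and 152 (log2 fold change -1.08, edgeR adjusted p = 2.63e-05).

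Eno1 has intronless copies in the mouse genome, and reads from near-identical copies cannot be assigned with certainty. Eno1b, a copy listed as protein coding, had 786 and 784 counts in Ezh2 f/f against 139 and 147 in Ezh2 cKO (log2 fold change -2.55, edgeR adjusted p = 1.06e-09). Gm4735, a processed pseudogene annotated to the enolase group, had 896 and 1016 counts in Ezh2 f/f against 113 and 96 in Ezh2 cKO (log2 fold change -3.29, edgeR adjusted p = 4.24e-10). Both copies therefore fell while Eno1 rose. Their share of the counts of all 3 rows was 21.5 ± 0.55% (SD, n = 2) in Ezh2 f/f against 1.80 ± 0.013% in Ezh2 cKO. With the copies added to Eno1, its log2 fold change was 0.67 in place of 0.99, and the difference in log2 ratio to Eno2 was -0.92 in place of -0.59. Whether reads moved between Eno1 and its copies was not tested. The other 19 pseudogene or noncoding rows annotated to the same 5 enzyme groups reached at most 18 counts in a library.

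**Figure D2:**
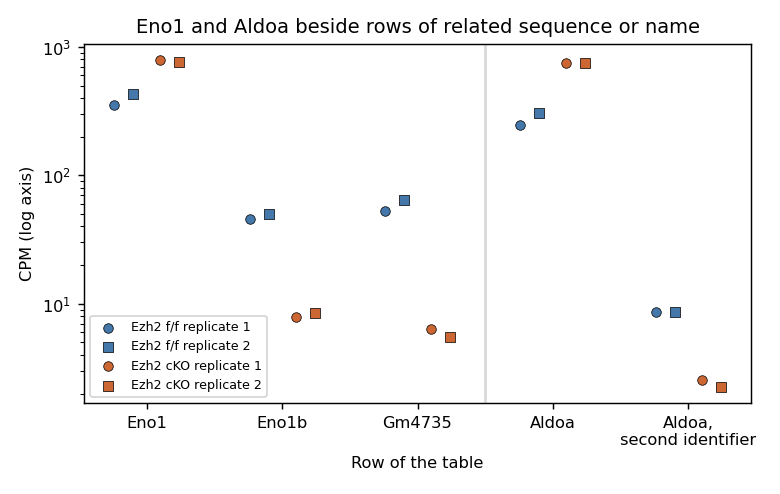
CPM on a log axis for Eno1, its copies Eno1b and Gm4735, and the 2 Aldoa identifiers, with 1 point per library (blue, Ezh2 f/f; orange, Ezh2 cKO). Eno1 and the main Aldoa row are higher in Ezh2 cKO, and the other 3 rows are lower in Ezh2 cKO.

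Ldha, the subunit known for favouring lactate, rose more than Ldhb, the subunit known for favouring pyruvate. Ldha (ENSMUSG00000063229, chromosome 7, 46490899 to 46505051, plus strand) had 4247 and 3928 counts in Ezh2 f/f against 10947 and 10403 in Ezh2 cKO. Per length it rose from 73.2 and 72.9 FPKM to 190.8 and 188.4 FPKM (log2 fold change 1.29, standard error 0.080, edgeR adjusted p = 8.25e-09). Ldhb (ENSMUSG00000030246, chromosome 6, 142435975 to 142453683, minus strand) had 3954 and 3777 counts in Ezh2 f/f against 5941 and 5308 in Ezh2 cKO. Its level went from 143.7 and 147.8 FPKM to 218.4 and 202.7 FPKM (log2 fold change 0.45, standard error 0.087, edgeR adjusted p = 4.05e-04). The ratio of Ldha to Ldhb was 0.509 and 0.493 in Ezh2 f/f against 0.874 and 0.930 in Ezh2 cKO. From the deposited rows this was the largest shift of the 5 pairs, 0.85 in log2 ratio or 1.80-fold (with its copies added, Eno1 to Eno2 shifted by -0.92), with replicates far closer to each other than to the other group (exact two-sided permutation p = 0.333). Ldhb made up 66.6 ± 0.51% (SD, n = 2) of the FPKM of the pair in Ezh2 f/f against 52.6 ± 1.09% in Ezh2 cKO. With GENCODE M21 lengths (1815 bases for Ldha in place of the 3310 deposited, and 1304 for Ldhb in place of 1570) the ratio was 0.772 and 0.747 in Ezh2 f/f against 1.32 and 1.41 in Ezh2 cKO. Which subunit transcript led in Ezh2 cKO therefore depended on the length used, while the shift between groups did not.

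**Figure D3:**
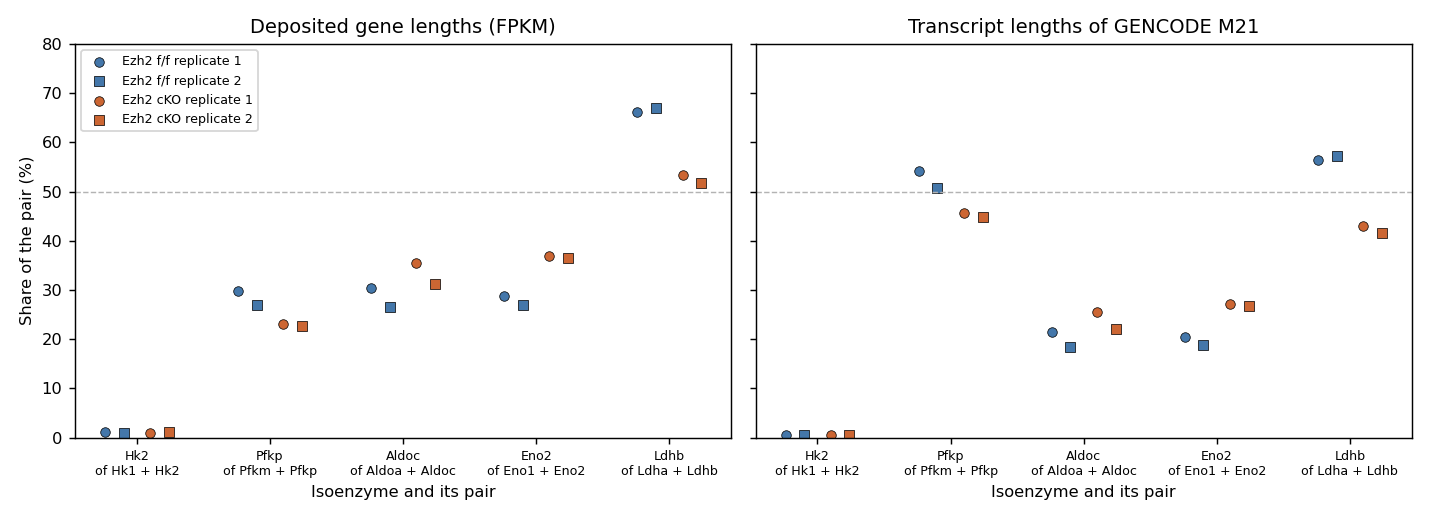
Share in percent that one isoenzyme took of its pair, per library (blue, Ezh2 f/f; orange, Ezh2 cKO; dashed line, equal shares), from the deposited FPKM (left) and with GENCODE M21 transcript lengths (right). The shares of Pfkp and Ldhb are lower and those of Aldoc and Eno2 higher in Ezh2 cKO in both panels, and some libraries of Pfkp and Ldhb lie on the other side of the dashed line in the right panel.

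The pairs as a whole grew by different amounts. Their ratios use the deposited FPKM, without the TMM scaling behind the edgeR fold changes. Over all tested genes, the median difference in log2(FPKM + 1) was 0.059, against 0.02 for the edgeR log2 fold change. By edgeR, Hk1 alone rose 1.19-fold. The summed FPKM of the aldolase pair rose most, from 127.9 ± 13.5 (SD, n = 2) to 398.2 ± 12.6, a ratio of 3.11. The enolase pair rose by a ratio of 2.40, the phosphofructokinase pair by 2.10, and the lactate dehydrogenase pair by 1.83. The enolase ratio leaves out the copies Eno1b and Gm4735. With them added, Eno1 rose by 0.67 in place of 0.99 on the log2 scale. The enolase pair would then rise less, and its place above the phosphofructokinase pair was not tested with the copies. The hexokinase pair, at the entry to the pathway, rose least, from 45.9 ± 2.78 to 58.1 ± 0.54 FPKM (SD, n = 2), a ratio of 1.26. By the deposited FPKM, the order in Ezh2 f/f from the top was Ldhb, Aldoa, Ldha, Eno1, Pfkm, Hk1, Aldoc, Eno2, Pfkp and Hk2, and the libraries of Ldha and Eno1 overlapped. In Ezh2 cKO it was Aldoa, Ldhb, Ldha, Eno1, Aldoc, Pfkm, Eno2, Hk1, Pfkp and Hk2, so Aldoc and Eno2 had both passed Hk1. The order depended on the lengths: with those of GENCODE M21, Eno1 came first in Ezh2 f/f, with overlap with Ldhb and Aldoa, and second to Aldoa in Ezh2 cKO. With these lengths too, Aldoc and Eno2 stood below Hk1 in Ezh2 f/f and above it in Ezh2 cKO.

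The promoters of Ldha and Ldhb, whose ratio shifted toward Ldha, were read together with those of Pfkp and of Hk2, the gene that did not pass the test, for the core of the element that hypoxia-inducible factors bind (ACGTG or GCGTG). The sequences are from RefSeq on GRCm38.p6, 5′ to 3′ along the gene's strand, and all 10 genes were matched, with 20 promoters. Only the stretch around the matches within the 250 bases before the start is shown, and capitals mark every match on either strand.
Ldha: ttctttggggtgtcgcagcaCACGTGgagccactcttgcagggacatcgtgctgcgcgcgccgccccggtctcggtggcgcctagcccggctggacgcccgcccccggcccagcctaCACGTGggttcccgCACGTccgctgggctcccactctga
Ldhb: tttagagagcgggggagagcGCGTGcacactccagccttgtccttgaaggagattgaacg
Pfkp: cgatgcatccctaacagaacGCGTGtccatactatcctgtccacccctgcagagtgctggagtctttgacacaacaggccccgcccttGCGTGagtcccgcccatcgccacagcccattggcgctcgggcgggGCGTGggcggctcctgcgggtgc
Hk2: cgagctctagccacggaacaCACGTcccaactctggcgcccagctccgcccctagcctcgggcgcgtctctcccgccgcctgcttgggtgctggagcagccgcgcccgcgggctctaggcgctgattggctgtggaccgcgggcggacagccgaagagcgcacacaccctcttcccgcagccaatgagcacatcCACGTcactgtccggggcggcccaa
These windows are chr7:46845639-46845794 (plus strand), chr6:142508044-142508103, chr13:6648772-6648927 and chr6:82774482-82774700 (minus strand for the last 3). Ldha has another promoter in the table, which holds 1 GCGTG and no CACGTG and is not shown. The Ldha window above holds 3 separate sites, and 2 of them are CACGTG, the palindromic E-box, in which ACGTG is read on both strands. Pfkp also has 3 sites, Hk2 has 2 and Ldhb has 1. At least 1 match was found in 16 of the 20 promoters of the isoenzyme genes and in 38.6% of all 32851 RefSeq promoters. CACGTG was in 2 of the 20, of Ldha and Pfkm, and in 6.02% of all. Separate sites numbered 2 or more in 7 of the 20 and in 13.5% of all. They numbered 3 or more in 2 of the 20 and in 4.65% of all. Promoters of the same gene can overlap, so the 20 are not independent. The shares over all promoters were not matched to the 20 for base composition. The promoter of Eno2 held no match in this window. A match is a description of the letters and not a bound site.

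Genes of the hypoxia response outside glycolysis did not move as 1 group. Of 13 tested genes, 3 were higher and 3 lower, beside 34.7% and 33.6% of all tested genes. The median log2 fold change of the 13 was 0.03. Vegfa, a vessel growth factor, rose by 1.00, Bnip3, a mitophagy receptor, by 2.04, and P4ha1, a collagen hydroxylase, by 1.01 (edgeR adjusted p = 9.22e-07, 6.11e-07 and 4.32e-06). The histone demethylase gene Kdm3a fell, with a log2 fold change of -1.25, as did Ddit4 (-0.49) and Egln1 (-0.39). Hif1a had 430 and 433 counts in Ezh2 f/f against 447 and 607 in Ezh2 cKO (edgeR adjusted p = 0.245).

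The other steps of glycolysis were also unequal. Of the 9 tested genes, 6 were higher and 2 lower, beside 34.7% and 33.6% of all tested genes. The median log2 fold change of the 9 was 0.60. Tpi1, triose phosphate isomerase, rose from 2265 and 2684 counts to 11643 and 10365 (log2 fold change 2.05, edgeR adjusted p = 2.57e-09), more than any of the 10 isoenzyme genes. Pgk1, Pgam1 and Gpi1 rose by 0.79, 0.69 and 0.60 on the log2 scale, and Gapdh by 0.23 (edgeR adjusted p = 0.0297). Pkm, the pyruvate kinase of brain and the most counted gene of this list, had 13066 and 12907 counts in Ezh2 f/f against 13146 and 12607 in Ezh2 cKO (log2 fold change -0.11, edgeR adjusted p = 0.226). Pgam2 and Pklr, isoenzymes best known from muscle and liver, were lower. Among 9 tested isoenzymes of the same 5 steps outside the 10 genes, 4 were higher and 3 lower, with a median of 0.08.

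Phosphofructokinase activity depends in part on a sugar bisphosphate. Pfkfb enzymes can both make and remove this bisphosphate, and Tigar removes it. Pfkfb3 fell from 1021 and 750 counts to 509 and 428 (log2 fold change -1.01, edgeR adjusted p = 7.17e-06), while Pfkm and Pfkp rose. Pfkfb2 (-0.93) and Pfkfb4 (-0.78) fell too, and Tigar rose by 0.65 (edgeR adjusted p = 2.63e-05, 5.34e-06 and 0.00121). Thus 3 of the 5 genes of this list were lower and 1 was higher, beside 33.6% and 34.7% of all tested genes.

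Of 9 genes for carrying glucose and lactate across the membrane, 5 were higher and 2 lower, beside 34.7% and 33.6% of all tested genes, with a median log2 fold change of 0.46. Slc2a1, the glucose carrier of the blood-brain barrier and of astrocytes, fell from 1434 and 1185 counts to 532 and 575 (log2 fold change -1.33, edgeR adjusted p = 4.58e-08). Slc2a3, the glucose carrier of neurons, rose from 971 and 1026 counts to 2922 and 2820 (1.43, edgeR adjusted p = 2.24e-08). The monocarboxylate carriers, which move lactate, rose together with Ldha. Slc16a1 went from 271 and 217 counts to 1378 and 1368 (log2 fold change 2.40), and Slc16a3 from 19 and 38 to 124 and 122 (2.00). Slc16a7, the neuronal lactate carrier, went from 16 and 19 counts to 597 and 829 (5.25, edgeR adjusted p = 4.80e-10). Bsg, a chaperone of monocarboxylate carriers and the most counted gene of the list, rose by 0.46. Emb, also in this list, did not pass the test (0.13, edgeR adjusted p = 0.621).

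Genes that lead pyruvate into the mitochondrion rose in 8 of 14 cases and fell in 0, beside 34.7% and 33.6% of all tested genes. Their median log2 fold change was 0.46. Pdha1 and Pdhb, subunits of pyruvate dehydrogenase, rose by 1.19 and 0.94 on the log2 scale (edgeR adjusted p = 9.95e-06 and 4.97e-07). Pdk1, Pdk2 and Pdk3, the kinases that inhibit that enzyme, rose by 0.52, 0.70 and 0.57, and the fourth kinase gene, Pdk4, did not pass the test (0.37, edgeR adjusted p = 0.155). The phosphatase gene Pdp1, which reverses the kinases, had a log2 fold change of -0.25 (edgeR adjusted p = 0.0518).

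**Figure D4:**
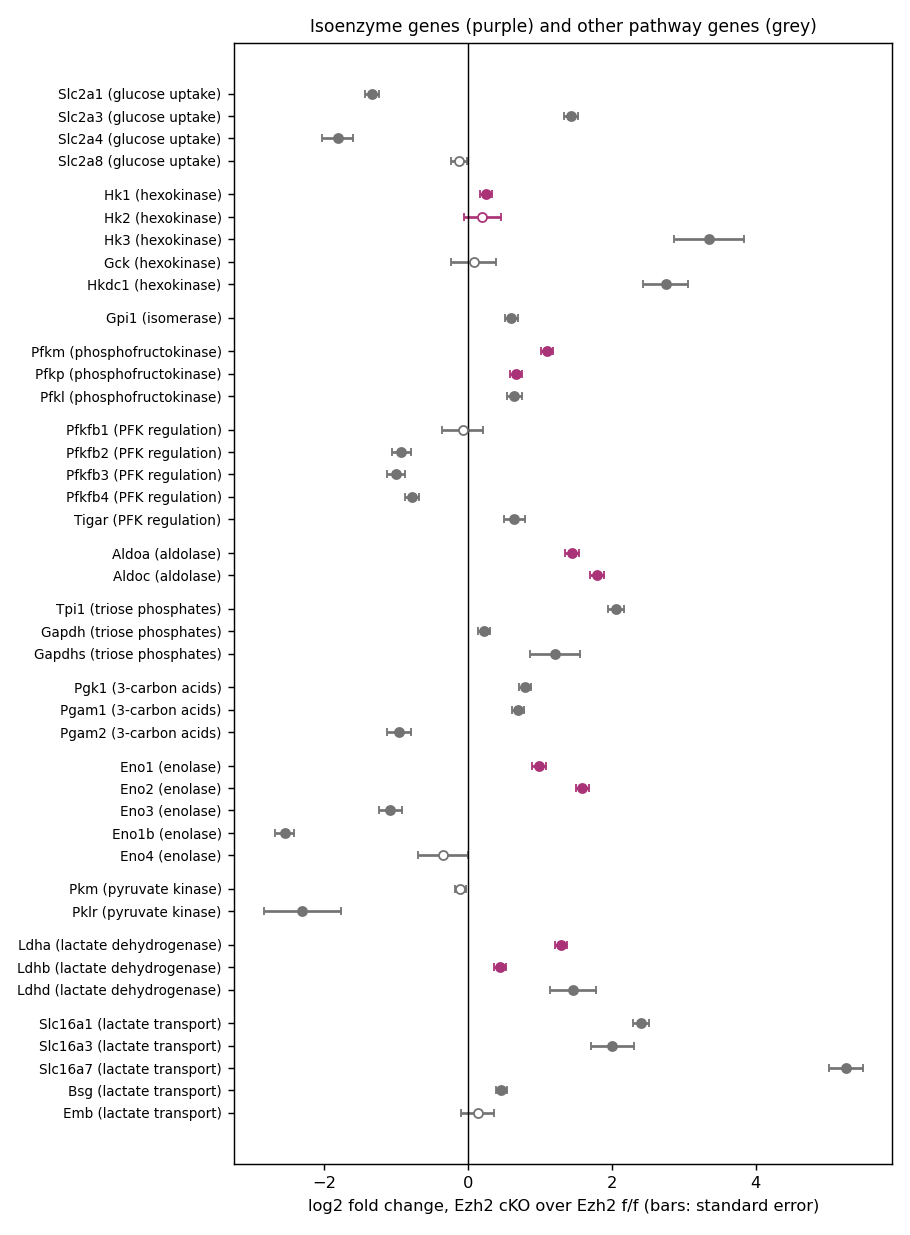
Log2 fold change of Ezh2 cKO over Ezh2 f/f with its standard error for the 10 isoenzyme genes (purple) and tested genes from the lists of other isoenzymes, other steps, phosphofructokinase regulation and transport (grey), in pathway order. Filled points passed an edgeR adjusted p under 0.05, and Hk2 is the 1 purple point that is open.

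The libraries also differed in markers of the cells they held, and the 12 lists are given by their counts and summed levels. Over all tested genes, 34.7% were higher and 33.6% were lower. Of 18 astrocyte markers, 16 were higher and 0 lower, and their summed level was between 1023 and 1082 CPM in Ezh2 f/f against between 3918 and 4291 CPM in Ezh2 cKO. No marker of the list was at 0, while Aldh1l1 and Sox9 did not pass the test. Of 16 neuron markers, 13 were higher and 1 lower, with 7529 to 7868 CPM in Ezh2 f/f against 12709 to 12993 CPM in Ezh2 cKO. The lower neuron marker was Tubb3, with a log2 fold change of -0.71. No neuron marker was at 0 in these libraries labelled astrocytes. Immature neuron markers fell in 9 of 10 cases, from between 7827 and 8222 CPM to between 2564 and 2643 CPM, and cycling markers fell in 8 of 11, from 250.9 and 239.0 CPM to 156.1 and 147.8 CPM. Oligodendrocyte markers rose in all 7 tested, from 83.8 and 96.1 CPM to 869.1 and 744.3 CPM, and microglia markers in 10 of 10, from 109.5 and 111.1 CPM to 340.4 and 288.0 CPM. Oligodendrocyte precursor markers rose in 7 of 8 cases and fell in 1, from 578.7 and 657.3 CPM to 817.2 and 741.5 CPM. Of 8 neural progenitor markers, 3 rose and 5 fell, with sums between 573.9 and 674.2 CPM in the 4 libraries. Endothelial markers rose in 3 of 9 and fell in 1 (259.0 to 306.1 CPM over the 4 libraries), and mural markers rose in 3 of 6 and fell in 1, from 207.3 and 220.6 CPM to 360.0 and 318.2 CPM. Erythrocyte markers rose in 3 of 5 tested and fell in 0, with sums between 373.0 and 469.3 CPM. Choroid plexus and ependyma markers fell in 4 of 5, from 398.3 and 780.4 CPM to 14.6 and 12.6 CPM. None of these lists had a marker at or under 3 counts in every library. Most markers of neurons, astrocytes, oligodendrocytes, oligodendrocyte precursors and microglia thus moved in the same direction as Eno2 and Aldoc. Most markers of immature neurons, neural progenitors, cycling cells, and choroid plexus and ependyma moved the other way. The part of these cells in the changes of the isoenzyme genes was not tested.

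**Figure D5:**
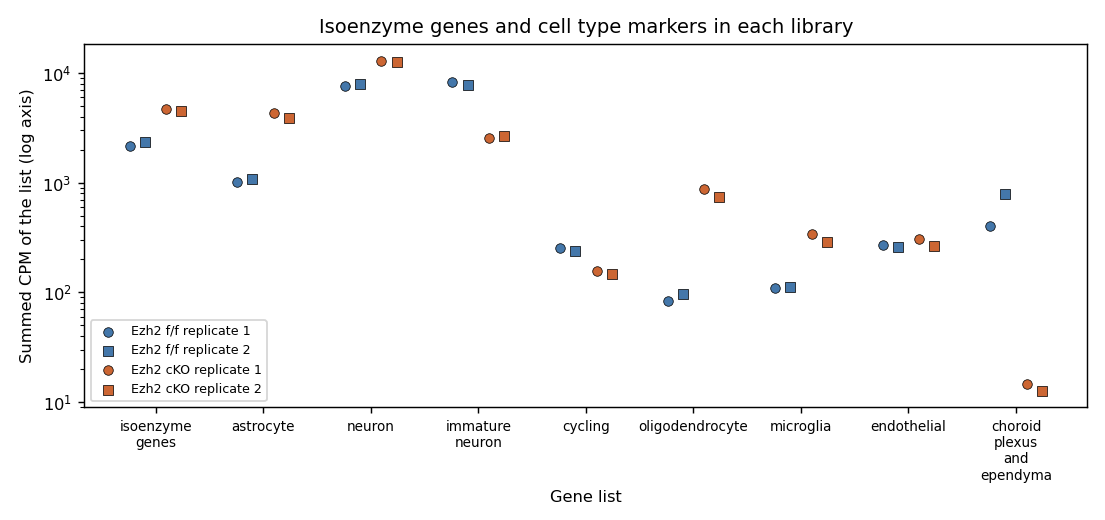
Summed CPM on a log axis of the 10 isoenzyme genes and of 8 lists of cell type markers, with 1 point per library (blue, Ezh2 f/f; orange, Ezh2 cKO). The isoenzyme, astrocyte, neuron, oligodendrocyte and microglia sums are higher in Ezh2 cKO, and the immature neuron, cycling and choroid plexus sums are lower.

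The genes with the pattern most like an isoenzyme gene were sought among the 4577 genes with a mean of at least 50 CPM, by the distance of log2 CPM, centred on each gene's mean, over the 4 libraries. With 4 libraries in 2 groups this mostly ranks genes by fold change. The 3 nearest to Aldoa were Syp, Slc12a5 and Slc2a3, the nearest at a distance of 0.044. For Aldoc they were Phf24, Tmem191c and Ttyh1, for Eno2 they were Grin1, Asrgl1 and Mgst3, and for Ldha they were Ap3b2, Trp53inp2 and Agpat1.

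Some isoenzyme genes share their place with other genes, and whether the counting used strand is not given in the sources used here. Tlcd3b, on the strand opposite to Aldoa, had 4993 and 4821 counts in Ezh2 f/f against 5076 and 4475 in Ezh2 cKO. Senp1, opposite to Pfkm, had 603 and 619 counts in Ezh2 f/f against 307 and 258 in Ezh2 cKO. Pitrm1, opposite to Pfkp, had at most 488 counts, and Hk1os, opposite to Hk1, at most 10. The part of these genes in the counts of Aldoa, Pfkm, Pfkp and Hk1 was not tested.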

How the data were processed

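The authors deposited raw read counts per gene and FPKM values for 4 libraries. The submitters' processing notes name Bowtie2 2.2.3, TopHat2 2.0.12, HTSeq 0.6.0 and mm9; annotation and strand setting are not given in the sources used here. Coordinates are printed as deposited with their build unsettled (0 of 11 rows of the isoenzyme genes match GRCm38). Columns of the authors' own comparison (ratio, p-values) were not used, and 0 sample columns were left out. Counts were filtered (filterByExpr), normalized by TMM and tested with edgeR 4.0.16 (R 4.3.3), with group as the only term. The test was checked on simulated data in which far fewer genes changed than were called here. The floor of 3 counts covers counting error only. Alternatives were DESeq2 1.42.0 and its size factors, limma 3.58.1 on log2(FPKM + 1) or log2(FPKM + 0.1) with a filter of 1 FPKM in 2 libraries or on log2(FPKM + 1) without it, no count filter, a mean of at least 50 counts, the replicate block and each library left out; summed copies and GENCODE M21 lengths were added after seeing the data. The members and lists were chosen with earlier results of these data known. Named are the 10 isoenzyme genes, Ezh2, pathway list genes, the 3 nearest genes and defining markers; Gm4735 and the overlapping genes were chosen after their values were seen. A gene of the list of other isoenzymes is counted with its list and is not reported here.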

Additional observations from a re-analysis of the deposited data

How the results depend on the processing

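Over 13 alternatives the number of isoenzyme genes called higher was 8 or 9 and that called lower was 0; the call that changed was Hk1, lost without Ezh2 f/f replicate 1 or Ezh2 cKO replicate 1. Hk2 was not past the threshold in the 11 alternatives that gave it a value; the limma fits with a filter of 1 FPKM dropped it. The Hk1 to Hk2 difference in log2 ratio, 0.04, reversed to -0.19 without Ezh2 f/f replicate 1 and to -0.0061 without Ezh2 cKO replicate 1, and ranged from -0.19 to 0.27 over the left-out libraries. The other ratios kept their direction when libraries were left out, with ranges of 0.32 to 0.52 (Pfkm to Pfkp), -0.46 to -0.19 (Aldoa to Aldoc), -0.66 to -0.53 (Eno1 to Eno2) and 0.80 to 0.89 (Ldha to Ldhb). The sources used here do not say whether libraries with the same replicate number belong together. Same-numbered libraries deviated with a correlation of 0.119 across genes. With only 2 pairs, this value cannot decide whether the libraries are paired. With the replicate block, 9 isoenzyme genes were called higher and 0 lower, 5795 of all genes were higher and 5599 lower, and no call of an isoenzyme gene changed. Over all genes, 4677 to 5831 were higher and 4518 to 5747 lower. Hk2 had at most 61 counts in a library; whether depth or a small change decides its missing call was not tested.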

Other observations

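Genes of glycogen turnover, the glucose store of astrocytes, were not described above. Of 9 tested, 5 were higher in Ezh2 cKO and 1 was lower, beside 34.7% and 33.6% of all tested genes. The median log2 fold change of the 9 was 0.31, beside 0.02 for all tested genes. Gys1, glycogen synthase, rose from 92 and 107 counts in Ezh2 f/f to 476 and 447 in Ezh2 cKO (log2 fold change 2.12, edgeR adjusted p = 5.02e-08). Ugp2, which makes the sugar nucleotide that glycogen synthase uses, rose from 406 and 362 counts to 703 and 766 (0.84, edgeR adjusted p = 1.17e-05). Pygb, the brain glycogen phosphorylase and the most counted of the list, rose less, from 2541 and 2531 counts to 3651 and 3077 (0.31, edgeR adjusted p = 0.0116). Another phosphorylase gene, Pygm, rose from 101 and 124 counts to 220 and 199 (0.80, edgeR adjusted p = 0.00162). The phosphorylase gene Pygl did not pass the test (0.10, edgeR adjusted p = 0.717). Pgm2 fell, with a log2 fold change of -0.78 (edgeR adjusted p = 8.88e-04). Gyg1 was not analysed here.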
